A study of Drosophila melanogaster with 34 samples.

Results

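The regions described here are the stretches of the Drosophila melanogaster genome that 7 or more of 10 lists of histone deacetylase peaks cover at the same bases. Of 795 runs of such bases on 6 chromosome arms (X, 2L, 2R, 3L, 3R and 4), 743 were 200 bp or longer and were kept as segments. They held 1685827 bp, or 1.40% of the 120102709 bp of the 6 arms, and 4.39% of the 38442910 bp that any of the 10 lists covers. The segments were selected on the measured overlap of the lists, so their number, length, number of lists and number of enzymes describe the choice and were not tested.

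Histone deacetylases (HDACs) remove acetyl groups from histone tails and from other proteins, and acetylated histones mark active promoters and enhancers. HDAC1 (Rpd3 in flies) is the catalytic subunit of the Sin3 and NuRD corepressor complexes, and HDAC3 acts with the corepressor SMRTER. HDAC6 is best known as a cytoplasmic deacetylase of tubulin, and HDAC11 is the class IV enzyme of the family. HDACs have no DNA sequence of their own to bind and are brought to chromatin by other proteins. Where many HDAC lists meet, proteins that do bind DNA can be compared: CTCF, an insulator protein, Caudal, a homeodomain factor that patterns the posterior embryo and the gut, and EcR, the nuclear receptor for the moulting hormone ecdysone.

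The series mapped these proteins by chromatin immunoprecipitation and sequencing (ChIP-seq) in 34 samples, of which 18 came with a list of bound regions and 16 were inputs. HDAC1, HDAC3, HDAC4a, HDAC6 and HDAC11 had 2 lists each from embryos of 0 to 12 h laid by y; bw cn sp flies, called lists 1 and 2 by rising title number. Each HDAC list pooled 2 libraries, and all 10 shared 1 input library, whose part in the overlap was not tested. CTCF had 2 lists from S2 cells, a line derived from embryos, with 200 in the title of list 1 and 500 in that of list 2. Caudal had a list from embryos of 0 to 4 h made with an antibody to Caudal. Titles of the 0 to 4 h inputs carry the mark that stands beside cad-GFP in other Caudal titles. The strain of the 0 to 4 h embryos is not given here. The other lists used an antibody to GFP on cad-GFP animals: embryos of 4 to 8 h, adult females of 21 days and L3 larvae. EcR had lists labelled WPP (white prepupa) with times of 10 to 11 h and of 30 to 33 h. Both were made with the same antibody to GFP on EcR-GFP animals. The GFP material came from y w, VK33 flies and its inputs from y; bw cn sp flies, and nothing was treated. The labels do not state that the lists of a protein came from separate collections. Whole animals mix many cell types, so bases under several lists need not have carried the proteins in the same cells. No file gave read counts, so the depth behind each list is unknown. Positions are counted from 1 on genome release 5, and segments were given no gene.

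Bases under many lists were rare (plot of bases by number of lists). No HDAC list covered 81659799 bp, or 68.0% of the arms, 1 list covered 10294519 bp and 2 lists 11345090 bp. Exactly 6 lists covered 1688741 bp (1.41%), 7 lists 971526 bp (0.809%), 8 lists 488627 bp (0.407%), 9 lists 199970 bp (0.166%) and all 10 lists 29658 bp (0.0247%). Segments were 2269 ± 1308 bp long (SD over 743 segments), with a median of 1985 bp and quartiles of 1358 and 2794 bp. In all, 599 segments (80.6%) were at least 1000 and under 4000 bp long, 26 were under 500 bp and 39 were 5000 bp or longer. Just inside the length threshold lay segments of 209, 214, 228, 239 and 243 bp, and just outside it runs of 198, 191, 189, 169 and 155 bp. Just outside the threshold on lists, 635 runs reached 6 lists and never 7, with lengths of 208 to 7959 bp and a median of 1704 bp. The 3 longest of them were 2L:5976407-5984365 (7959 bp), 2R:18573144-18579842 (6699 bp) and 3R:11099572-11104712 (5141 bp). The first of these lacked HDAC11 list 1, HDAC6 list 1 and both lists of HDAC4a.

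**Figure D1:**
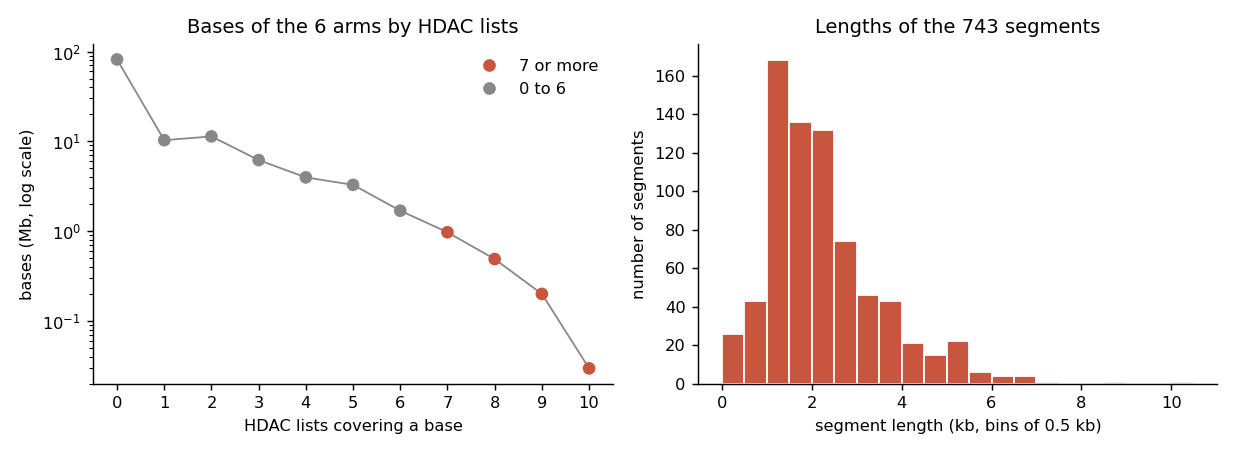
Left, bases of the 6 arms (Mb, log scale) against the number of HDAC lists that cover them, with the bases of 7 or more lists in red. Right, number of segments against length in bins of 0.5 kb; 168 of the 743 segments lie between 1000 and 1499 bp, and 1 lies beyond 10000 bp.

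Most segments only just met the rule. The highest number of lists at a base was 7 in 416 segments (56.0%), 8 in 220 (29.6%), 9 in 91 (12.2%) and 10 in 16 (2.15%). Median length was 1640 bp in segments that reached 7 lists, 2320 bp at 8, 2804 bp at 9 and 4100 bp at 10. Segments sat inside wide stretches of HDAC coverage. Of 7803 merged regions under any HDAC list, 547 held a segment and 142 held 2 or more, up to 5. Merged regions with a segment had a median width of 12430 bp, against 2541 bp for those without. This gap is partly built in, since a region with a segment joins peaks of at least 7 lists.

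A base under 7 lists has at least 4 of the 5 enzymes, so only 4 or 5 were possible. At the base with the most lists, 400 segments (53.8%) had 4 enzymes and 343 (46.2%) had 5. Of the 400, 324 lacked HDAC11, 32 lacked HDAC3, 23 lacked HDAC4a, 20 lacked HDAC1 and 1 lacked HDAC6. Both HDAC3 lists touched 675 segments (90.8%), both HDAC6 lists 649 (87.3%), both HDAC1 lists 638 (85.9%), both HDAC4a lists 304 (40.9%) and both HDAC11 lists 74 (9.96%). At least 1 list of HDAC6 touched 742 segments (99.9%), of HDAC1 723 (97.3%), of HDAC4a 720 (96.9%), of HDAC3 711 (95.7%) and of HDAC11 420 (56.5%). HDAC11 was thus the enzyme absent most often, and its lists also covered the least of the arms (3.60% and 3.71% of bases). Whether list size accounts for the absence was not tested.

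The 10 lists took unequal shares of the segments (bar chart of coverage by HDAC list). As background, 60503 windows of 1985 bp, the median length of a segment, were laid end to end over the arms. HDAC6 list 2 touched 731 segments (98.4%) and 15.7% of windows, and HDAC6 list 1 touched 660 (88.8%) and 11.1% of windows. HDAC3 list 1 touched 691 (93.0%) and 18.1% of windows, and HDAC3 list 2 touched 695 (93.5%) and 19.3% of windows. HDAC1 list 1 touched 685 (92.2%) and 12.9% of windows, and HDAC1 list 2 touched 676 (91.0%) and 17.9% of windows. The HDAC4a pair was uneven, with 380 segments (51.1%) and 9.05% of windows for list 1 and 644 segments (86.7%) and 14.4% of windows for list 2. HDAC11 list 1 touched 253 segments (34.1%) and 5.18% of windows, and HDAC11 list 2 touched 241 (32.4%) and 6.08% of windows. The rule used these lists, so the gap between segments and windows is a description only. HDAC3 lists, whose peaks were the widest, covered 94.0% and 94.4% of segment bases and 14.6% and 15.8% of arm bases. HDAC11 lists, the shortest, covered 37.6% and 32.5% of segment bases and 3.60% and 3.71% of arm bases.

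**Figure D2:**
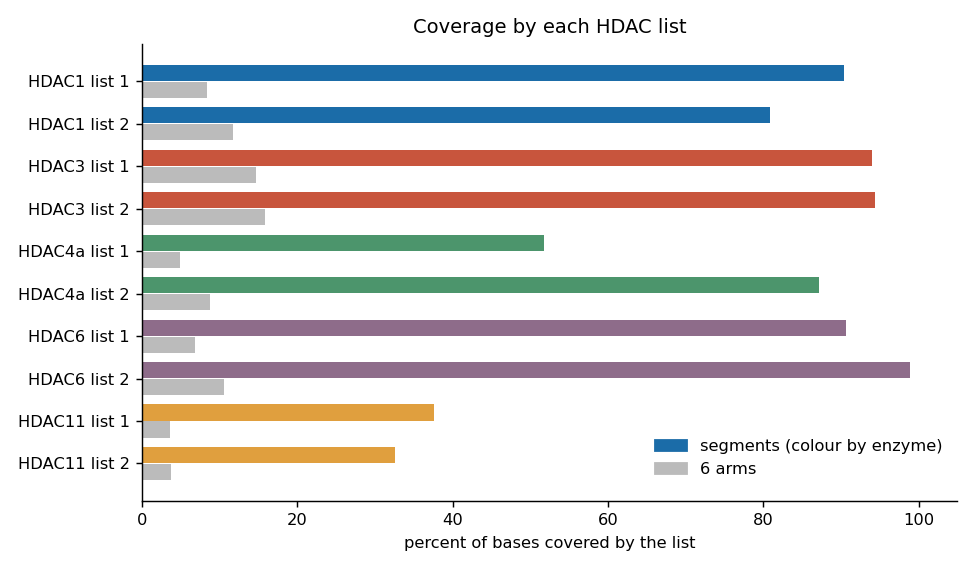
Percent of bases covered by each HDAC list, in the segments (coloured bars, 1 colour per enzyme) and over the 6 arms (grey bars). HDAC6 list 2 covers 98.9% of segment bases and HDAC11 list 2 covers 32.5%.

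The peaks that held a segment were the wider ones of their list. This is partly built in, since a wider peak has more bases on which a segment can lie. In HDAC11 list 1 the 196 peaks with a segment (20.0% of its peaks) had a median width of 5966 bp, and its other peaks 2822 bp. In HDAC4a list 1 the 356 peaks with a segment (13.2%) had a median width of 3186 bp, and its other peaks 1566 bp. HDAC1 list 2 was the exception in size, with 2830 bp for the 642 peaks with a segment (15.6%) and 2756 bp for its other peaks. The edges of the segments were set unevenly. HDAC1 list 2 ended at 352 of the 1486 segment edges (23.7%), HDAC1 list 1 at 245 (16.5%) and HDAC4a list 2 at 207 (13.9%). HDAC11 list 1 ended at 2 edges (0.135%), and 252 of the 253 segments it touched lay wholly inside its peaks.

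A few combinations of lists made up much of the set. There are 176 ways to take 7 or more of 10 lists, and 74 of them occurred at the base with the most lists, 22 of them once. The most common set lacked HDAC4a list 1 and both HDAC11 lists and was found in 167 segments (22.5%). Those absent lists are the ones that cover the fewest arm bases (4.87%, 3.60% and 3.71%). The next lacked only both HDAC11 lists, in 82 segments (11.0%), followed by 43 without HDAC4a list 1 and HDAC11 list 2 and 40 without HDAC4a list 1 and HDAC11 list 1. In 464 segments (62.4%) the same 7 or more lists covered every base of the segment, and in the others the lists changed along it. The rule fixes this for the 416 segments that only 7 lists touched, since every base needs 7. The 62.4% is thus largely built in. HDAC1 list 1 and HDAC6 list 2 shared 5 peaks identical to the base, 1 of which held a segment. HDAC4a list 2 and HDAC6 list 1, with 4003 and 2956 peaks on the arms, shared 37, 8 of which held a segment. The labels were followed, and whether these lists carry the right enzyme cannot be told from them, so every count of enzymes rests on the labels. HDAC4a list 2 and HDAC6 list 1 both touched 599 segments, against 304 for the HDAC4a pair and 649 for the HDAC6 pair. Pairs of other enzymes reached more, such as 684 for HDAC3 list 2 with HDAC6 list 2. When HDAC4a list 2 and HDAC6 list 1 were counted as 1, 463 segments were found and 448 of the 743 (60.3%) overlapped one of them. The rule still asked for 7 lists with 1 fewer to draw on, so bases could only drop out. Leaving out HDAC4a list 2 gave 426 segments and leaving out HDAC6 list 1 gave 412.

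The number of segments depended on single lists, since a segment of exactly 7 lists ends when 1 of them is taken away. Applied without HDAC6 list 2, the same rule found 348 runs, which overlapped 329 of the 743 segments (44.3%). It found 380 without HDAC1 list 1 (366 of the 743 overlapped), 381 without HDAC1 list 2 (376), 381 without HDAC3 list 1 (363) and 380 without HDAC3 list 2 (362). The number was 412 without HDAC6 list 1 (396 of the 743) and 426 without HDAC4a list 2 (409). It was 595 without HDAC4a list 1 (586 of the 743), 646 without HDAC11 list 1 (634) and 656 without HDAC11 list 2 (650).

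The 16 segments with bases under all 10 lists were spread over 3R (7), 2R (4), 2L (3) and 3L (2), and X had none. Of all 743 segments, 23.0% lay on 3R, 19.0% on 2R, 19.1% on 2L, 16.6% on 3L and 22.3% on X. With 16 segments the counts per arm are small and were not tested. The 16 are the places where every deacetylase list of the embryo met. The longest stretch under all 10 lists was 2R:3966588-3971323 (4736 bp), which filled nearly the whole segment 2R:3966509-3971351 (4843 bp). The next was 3R:6156442-6159866 (3425 bp) in the segment 3R:6156256-6160099 (3844 bp). Both of these segments overlapped both CTCF lists and no Caudal or EcR list. The shortest stretch was 119 bp, in the segment 3L:17796802-17798513 (1712 bp). The longest segment of the 16 was 3R:4475057-4480481 (5425 bp), with 2140 bp under all 10 lists and 5131 bp under Caudal of 4 to 8 h. It was followed by 3L:1295373-1300548 (5176 bp), where CTCF list 1 covered 782 bp, and 3R:11048083-11053244 (5162 bp), where Caudal of 4 to 8 h covered 1160 bp. The segment 2R:12081710-12086813 (5104 bp) overlapped both CTCF lists, by 1302 and 3417 bp, and Caudal of 4 to 8 h, by 3967 bp. A Caudal L3 region lay in 2L:12432554-12437509 (4956 bp), over 570 bp. Of the others among the 10 longest, 2R:19593193-19597727 (4535 bp) and 3R:7068130-7072486 (4357 bp) overlapped both CTCF lists and Caudal of 4 to 8 h, and 3R:11053320-11057082 (3763 bp) overlapped none of the 8 lists. In all, 12 of the 16 overlapped a CTCF list, 10 a Caudal list and 0 an EcR list, beside 55.7%, 52.0% and 2.56% of all 743 segments. The 16 are long, and among the 186 longest segments CTCF overlapped 66.1% and Caudal 57.5%.

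The longest segment of the set, 3R:7040808-7050957, spanned 10150 bp. All HDAC lists but HDAC4a list 1 touched it, and HDAC1 list 1 and HDAC1 list 2 covered 8099 and 7374 bp of it. CTCF lists 1 and 2 covered 3416 and 5683 bp and Caudal of 4 to 8 h covered 5012 bp. The next, 3R:1293051-1301729 (8679 bp), was reached by all 10 lists but by at most 9 at a base, and HDAC1 lists 1 and 2 covered only 106 and 1115 bp of it. Caudal of 4 to 8 h covered 8247 bp there. The longest on 2L, 2L:2749186-2756385 (7200 bp), was covered end to end by 7 lists and lacked HDAC4a list 1 and both HDAC11 lists. The longest on 2R was 2R:18522273-18529200 (6928 bp), without either HDAC11 list. On 3L it was 3L:827633-833558 (5926 bp) and on X it was X:1751147-1757158 (6012 bp), both without HDAC4a list 1 alone, and the segment on X overlapped none of the 8 other lists. The remaining ones among the 10 longest were 2L:2764634-2771253 (6620 bp), 2L:5522872-5529486 (6615 bp), 2R:5000137-5006636 (6500 bp), 2R:8642058-8648463 (6406 bp), 2L:9887579-9893788 (6210 bp) and 2L:13365221-13371289 (6069 bp). Each of these 6 was touched by 8 or 9 lists. The shortest segments, all on X, were X:19509546-19509754 (209 bp), X:16215922-16216135 (214 bp) and X:16537739-16537966 (228 bp).

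Segments were found on every arm but chromosome 4 (bar charts by arm). X held 166 segments (22.3%) on 18.7% of the arm bases and 16.9% of the bases under any HDAC list, which is 7.41 per Mb. By bases X did not lead, with 1.41% of its bases in segments, against 1.65% on 2R, 1.51% on 3R, 1.48% on 2L and 1.07% on 3L. Densities were 6.67 per Mb on 2R (141 segments), 6.18 on 2L (142), 6.13 on 3R (171) and 5.02 on 3L (123). The segments on X were shorter, with a median of 1702 bp, and none passed 9 lists at a base, which 16 of all 743 segments did. Medians were 1937 bp on 3L, 1982 bp on 2L, 2256 bp on 2R and 2293 bp on 3R. All 5 enzymes were present in 47.6% of segments on X, 52.0% on 3L, 46.8% on 2R, 45.1% on 2L and 40.9% on 3R. Chromosome 4, a small and largely heterochromatic chromosome, had HDAC lists over 29.5% of its bases but never more than 6 at once.

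**Figure D3:**
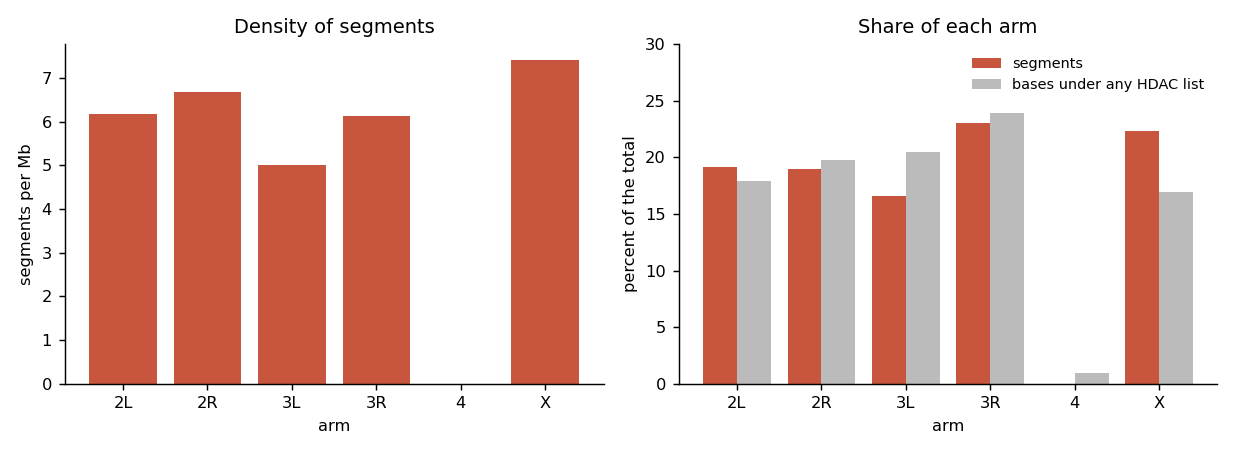
Left, segments per Mb on each arm. Right, percent of all 743 segments on each arm (red) beside the percent of the bases under any HDAC list that lie there (grey). X has 7.41 segments per Mb and 3L has 5.02, and chromosome 4 has none.

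Of the gaps between neighbouring segments, 244 (33.1%) were under 20000 bp. Neighbours can be parts of 1 merged HDAC region in which the number of lists dips below 7, and 142 merged regions held 2 or more segments. No background spacing was computed. The 738 gaps between neighbours on an arm had a median of 68016 bp and quartiles of 8256 and 203368 bp, and 89 gaps were under 1000 bp. The closest pairs were X:3673550-3675540 with X:3675546-3675975, 5 bp apart, and 2L:10855243-10858348 with 2L:10858355-10859783, 6 bp apart. The largest gap, of 1765695 bp, lay on 3L between 13012426 and 14778122. With gaps under 20000 bp joined, 335 segments stood alone and 7 groups held 5 or more. The largest group, 3R:7034507-7072486, had 6 segments that filled 27731 of its 37980 bp. It contained the longest segment, a segment of all 10 lists and a segment that 5 of the 8 other lists overlapped. Over 117 whole bins of 1 Mb the median was 6 segments. The most, 14, lay in 2R from 19000001 to 20000000, 3L from 3000001 to 4000000 and X from 2000001 to 3000000, and 4 bins had 0. On 2R, where the first segment began at 2521620, the first 2 of these bins were empty.

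The CTCF, Caudal and EcR lists were not used to choose the segments, and they covered more of the segments than of the rest of the arms. CTCF list 1 covered 29.8% of segment bases and 4.71% of bases outside, and CTCF list 2 covered 14.3% and 2.92%. Caudal of 4 to 8 h covered 22.3% of segment bases and 8.99% outside, Caudal of 0 to 4 h 8.40% and 4.23%, Caudal of adult females 8.21% and 3.32%, and Caudal L3 0.281% and 0.111%. EcR of 10 to 11 h covered 0.376% of segment bases and 0.21% outside, and EcR of 30 to 33 h 0.349% and 0.218%. All 8 lists were higher in the segments, by 7.41 ± 8.77 percentage points (mean ± SD over 8 lists). An exact two-sided sign-flip permutation test over the 8 lists gave p = 0.00781, the smallest it can give, and 0.0156 after Benjamini-Hochberg adjustment over the 2 tests made. Without both CTCF lists the mean was 3.81 points and all 6 lists stayed higher, with an exact p of 0.0312, the smallest that 6 lists can give, and 0.0625 after adjustment. Lists of 1 protein are not independent of each other, and the CTCF lists come from cultured cells, not embryos.

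Set against bases under 4 to 6 HDAC lists, the segments showed no common shift. CTCF lists 1 and 2 covered 29.8% and 14.3% of segment bases, against 23.2% and 11.8% of bases under 4 to 6 lists. Caudal of 0 to 4 h, of 4 to 8 h and of adult females covered 8.40%, 22.3% and 8.21% of segment bases, against 11.5%, 24.3% and 9.53%. Both EcR lists covered 0.376% and 0.349% of segment bases, against 0.614% each, and Caudal L3 covered 0.281%, against 0.214%. The mean difference was 0.267 ± 3.04 points (SD, 8 lists), higher in 3 of 8 lists, with an exact two-sided sign-flip permutation p of 0.867 (adjusted 0.867). This p does not show that the 2 classes of bases are alike, since the proteins moved in different directions. The sign of the mean turned without CTCF list 1 (-0.637 points), without CTCF list 2 (-0.0439 points) and without both (-1.15 points, exact p = 0.0625).

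CTCF coverage was highest where most HDAC lists met, and coverage by at least 1 Caudal list was highest under 4 (line plots of coverage by number of lists). These curves are a description over bases, which share lists and neighbours. CTCF list 1 covered 1.77% of bases under 0 HDAC lists, 17.7% under 4, 28.7% under 6, 28.9% under 7, 29.9% under 8, 33.1% under 9 and 33.6% under all 10. CTCF list 2 covered 1.40% under 0 lists, 9.68% under 4, 15.1% under 6, 12.8% under 7, 15.0% under 8, 17.1% under 9 and 29.0% under 10. At least 1 Caudal list covered 7.49% of bases under 0 HDAC lists, 41.0% under 4, 39.5% under 6, 37.2% under 7, 33.5% under 8, 26.8% under 9 and 31.5% under 10. Caudal of 0 to 4 h covered 12.0% of bases under 5 lists and 5.88% under 10. EcR of 10 to 11 h covered 0.703% of bases under 4 lists, 0.411% under 7 and 0 of the 29658 bases under 10. The bases under 10 lists lie in 16 segments, so the last points of each line rest on few places.

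**Figure D4:**
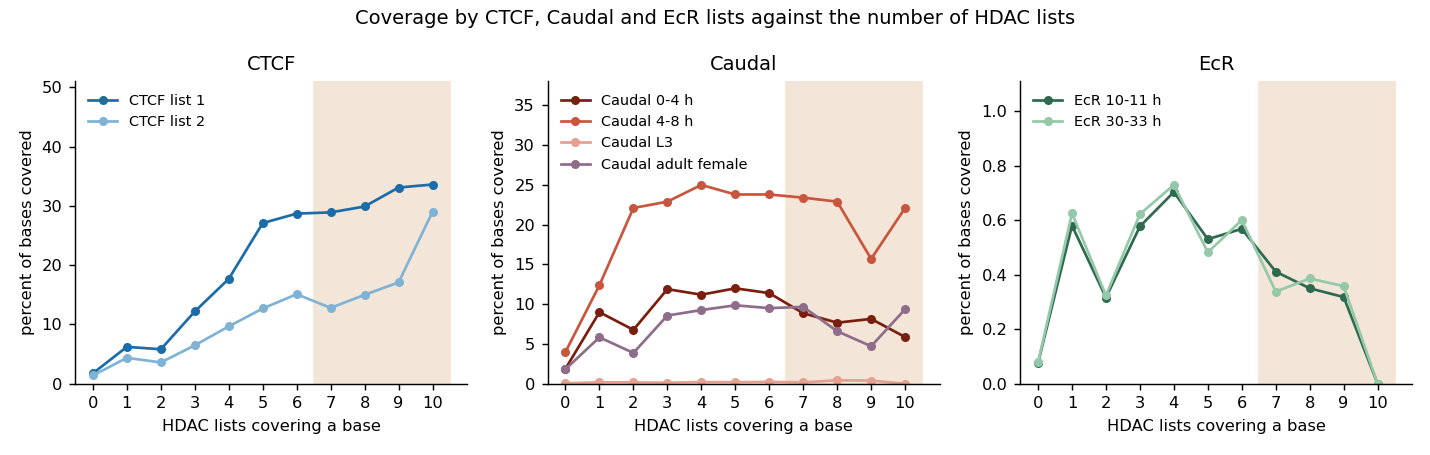
Percent of bases covered by each CTCF list (left), Caudal list (middle) and EcR list (right) against the number of HDAC lists that cover the same bases, with 7 to 10 lists shaded; the vertical scales differ. CTCF list 1 covers 28.9% of bases under 7 HDAC lists and 33.6% under 10, and Caudal of 0 to 4 h covers 8.87% and 5.88%.

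Counted by segment, 414 of 743 (55.7%, 95% Wilson interval 52.1% to 59.3%) overlapped a CTCF region by 1 bp or more. The background was 13.1% of windows. The runs most like the segments are the 2834 runs of 4 or more HDAC lists that never reached 7, with a median length of 2202 bp, and 51.4% of those overlapped CTCF. CTCF list 1 overlapped 398 segments (53.6%), 12.3% of windows and 50.2% of those runs. CTCF list 2 overlapped 184 segments (24.8%, 21.8% to 28.0%), 7.08% of windows and 24.9% of the runs. The intervals here and below cover counting error only, and segments are not replicates. Both CTCF lists overlapped 168 segments. Midpoints of 302 segments (40.6%) lay inside a CTCF region, against 35.8% for the runs that never reached 7.

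Caudal overlapped 386 segments (52.0%, 48.4% to 55.5%), 29.2% of windows and 55.2% of the runs that never reached 7. Most of this came from embryos of 4 to 8 h, whose list overlapped 264 segments (35.5%, 32.2% to 39.0%), 17.0% of windows and 31.5% of the runs. The adult female list overlapped 120 segments (16.2%, 13.7% to 19.0%), 8.18% of windows and 19.9% of the runs. The list of 0 to 4 h overlapped 79 segments (10.6%, 8.62% to 13.1%), 7.48% of windows and 16.3% of the runs. The L3 list overlapped 17 segments (2.29%, 1.43% to 3.63%), 1.07% of windows and 2.43% of the runs. The HDAC embryos of 0 to 12 h include both embryo stages of Caudal. Of the 386 segments, 305 overlapped 1 Caudal list, 68 overlapped 2, 13 overlapped 3 and 0 overlapped all 4. By pair of stages, 40 segments overlapped 0 to 4 h and adult females, 38 overlapped 4 to 8 h and adult females, and 22 overlapped the 2 embryo stages. These counts depend on how many segments each list overlapped (79 at 0 to 4 h, 264 at 4 to 8 h and 120 in adult females). No background was computed for the pairs, so their order is a description only. The midpoint lay inside a Caudal region in 264 segments (35.5%), against 41.0% of the runs that never reached 7.

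EcR overlapped 19 segments (2.56%, 1.64% to 3.96%), 1.39% of windows and 3.78% of the runs that never reached 7. The list of 10 to 11 h overlapped 16 segments (2.15%, 1.33% to 3.47%), 0.959% of windows and 3.00% of the runs. The list of 30 to 33 h overlapped 13 segments (1.75%, 1.03% to 2.97%), 0.964% of windows and 2.75% of the runs, and 10 segments overlapped both. With 19 segments these shares are imprecise, and the difference between segments and runs was not tested. The midpoint was inside an EcR region in 4 segments (0.538%), against 1.16% of the runs. The median segment was 103285 bp from the nearest EcR region of 10 to 11 h and 117001 bp from that of 30 to 33 h. Such distances grow as a list holds fewer regions, and no background was computed for them. The EcR and Caudal L3 lists hold few, narrow regions, 478 to 584 on the arms, which limits how many segments they can meet.

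Taking the 3 proteins together, 212 segments (28.5%) overlapped CTCF and Caudal, 188 (25.3%) CTCF alone, 161 (21.7%) Caudal alone and 163 (21.9%) none of them. Among the runs that never reached 7 the same shares were 28.9%, 20.2%, 23.8% and 23.3%. All 3 proteins met in 10 segments (1.35%), against 1.59% of the runs, and 9 segments had 5 of the 8 lists, the highest number found. The 5 longest of these were 3L:16399886-16405303 (5418 bp), 3L:5761064-5765296 (4233 bp), 3R:11797248-11800834 (3587 bp), 3R:7034507-7037826 (3320 bp) and 3L:14778122-14781010 (2889 bp). The first was covered whole by both CTCF lists and by Caudal of 0 to 4 h, and EcR covered 435 bp of it at 10 to 11 h and 935 bp at 30 to 33 h. The third was the one of the 5 without EcR, and 3 Caudal lists met there, those of 0 to 4 h and 4 to 8 h over all 3587 bp and that of adult females over 2886 bp. None of these 5 reached more than 8 HDAC lists, which is usual in the set. Of all 743 segments, 56.0% reached 7 lists at most and 29.6% reached 8.

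Overlap grew with the length of a segment, which bears on every split by number of lists. The 186 longest segments (median 3724 bp) overlapped CTCF in 66.1% and Caudal in 57.5%, and the 186 shortest (median 1078 bp) in 40.3% and 47.8%. CTCF overlapped 51.2% of segments that reached 7 lists, 58.2% at 8, 67.0% at 9 and 75.0% at 10, while midpoints inside a CTCF region were 40.4%, 41.8%, 40.7% and 31.2%. The order seen for overlap was thus not seen at midpoints. Caudal overlapped 50.7%, 53.2%, 52.7% and 62.5% of the same classes, and midpoints inside a Caudal region were 38.0%, 33.2%, 28.6% and 43.8%. Caudal held the midpoint in 43.5% of the 186 shortest segments and 30.6% of the 186 longest, opposite to its overlap. Segments of 5 enzymes overlapped CTCF in 57.7% and Caudal in 51.3%, and segments of 4 enzymes in 54.0% and 52.5%. Segments touched by HDAC11 overlapped CTCF in 54.5% and Caudal in 52.4%, and those not touched in 57.3% and 51.4%. By arm, CTCF overlap ran between 50.4% on 2R and 61.8% on 3L, and Caudal overlap between 47.6% on X and 55.0% on 3R.

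Coverage near the segment centres differed by list (plots of coverage around segment centres). CTCF list 1 covered 38.0% of centres, 18.3% and 20.2% of points 1000 bp to the left and right, and 10.5% and 10.4% at 2000 bp. At 20000 bp it was 7.40% and 6.46%. CTCF list 2 covered 19.0% of centres and 7.94% and 11.0% of points at 1000 bp. Caudal of 4 to 8 h had no such peak, with 21.3% of centres, 19.8% and 22.9% at 2000 bp, and 12.4% and 13.7% at 20000 bp. Its regions on a segment had a median width of 2380 bp, against 1250 bp for CTCF list 1. Wider regions flatten such a profile, and the part of width in the difference was not tested. Caudal of adult females covered 12.0% of centres and 7.54% and 6.19% at 1000 bp, and Caudal of 0 to 4 h 8.48% of centres and 7.27% and 7.13% at 1000 bp. Among the lists that chose the segments, HDAC3 list 2 covered 93.3% of centres and still 52.4% and 51.7% of points at 5000 bp, while HDAC6 list 2 covered 98.3% of centres and 29.2% and 31.1% at 5000 bp.

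**Figure D5:**
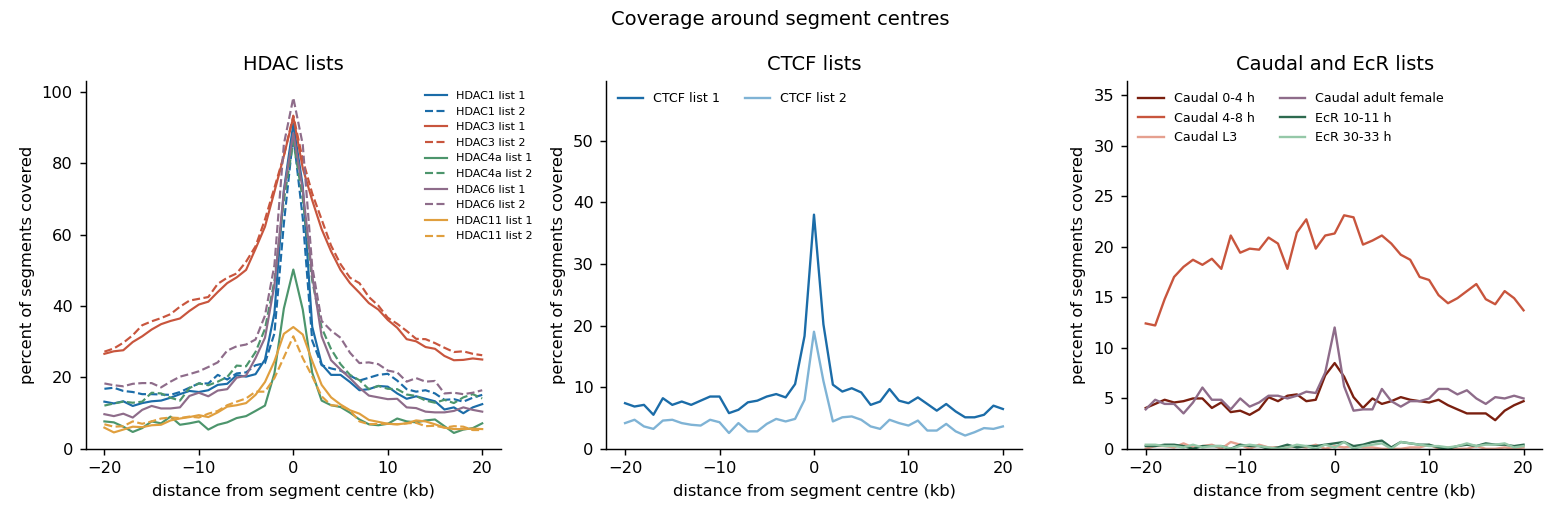
Percent of the 743 segments covered at each distance from the segment centre (kb, steps of 1 kb, arm coordinates running left to right) by the HDAC lists (left; list 1 solid, list 2 dashed), the CTCF lists (middle) and the Caudal and EcR lists (right); the vertical scales differ. CTCF list 1 covers 38.0% of centres and 10.5% of points 2 kb to the left, and Caudal of 4 to 8 h covers 21.3% and 19.8%.

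Seen from the other lists, 2.72% to 8.65% of their regions met a segment, and the segments hold 1.40% of the arm bases. Overlap by 1 bp was enough and grows with width, so 1.40% is not the share to expect of regions. Of the CTCF regions on the arms, 422 of 4879 in list 1 (8.65%) and 184 of 2615 in list 2 (7.04%) overlapped a segment, and they had median widths of 1250 and 1401 bp, against 995 and 1231 bp for the rest. The shares were 4.69% of 5587 regions for Caudal of 4 to 8 h, 3.52% of 3407 for adult females, 3.38% of 2159 for 0 to 4 h and 3.25% of 584 for L3. For EcR they were 3.31% of 483 regions at 10 to 11 h and 2.72% of 478 at 30 to 33 h. The authors' score of the EcR regions of 10 to 11 h had a median of 7.68 in regions on a segment and 7.79 in the rest, and at 30 to 33 h it was 8.63 and 8.74.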

How the data were processed

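The authors deposited 1 list of regions per ChIP sample, made from numbered libraries that the titles show as pooled, on build 5 of the BDGP genome per the submitters' processing notes. The deposited HDAC, CTCF and other Caudal lists hold a chromosome, start and end only. The EcR and Caudal L3 lists also hold the authors' score, whose scale is not stated, and per the file headers are density regions above a count threshold (310.4 and 169.4 for EcR of 30 to 33 h and 10 to 11 h, 133.8 for Caudal L3). EcR stands in the track name of the Caudal L3 header; the labels were followed. Aligner and peak caller: not given in the sources used here.

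Starts were raised by 1 to give 1-based positions, and each arm was bounded by its outermost regions in the 18 lists. For every base the HDAC lists covering it were counted, and runs of 7 or more of at least 200 bp were kept. Coverage differences over the 8 CTCF, Caudal and EcR lists were tested by exact two-sided sign-flip permutation (256 patterns) at a threshold of 0.05, with Benjamini-Hochberg adjustment over 2 tests. No test ran over segments or bases. The code was checked on simulated lists and used Python 3.11.15, numpy 2.4.6, scipy 1.17.1 and matplotlib 3.10.9.

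Segments named are those reaching all 10 lists (the 10 longest of them), the 10 longest, the longest per arm, the 5 with most other lists, the 3 shortest, the closest 2 pairs and the 3 longest runs of 6 lists; the stretches of longest and shortest 10-list coverage and the largest group and gap were singled out after their values were seen. The segments, the rule and the lists compared were chosen with earlier results of these data known. The planned gene and motif counts were not run, since the gene table at hand belongs to release 6 and no genome was used. Alternatives are given in the closing section.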

Additional observations from a re-analysis of the deposited data

How the results depend on the processing

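No paired analysis was possible because the replicate numbers in the titles name libraries that the authors pooled within 1 list. Against 743 segments as reported, there were 1327 with 6 or more lists, 339 with 8 or more, 463 with HDAC4a list 2 and HDAC6 list 1 as 1 list, 386 with all 5 enzymes required and 307 with the widest 50% of each HDAC list; other minimum lengths (100 or 500 bp) and joining runs under 500 bp apart stayed within 1.5 times. Leaving out each HDAC list in turn gave 348 to 656 segments. The overlap with CTCF, Caudal and EcR (55.7%, 52.0% and 2.56%) was 40.6%, 35.5% and 0.538% at midpoints and 38.8%, 42.4% and 0.942% with the upper 50% of each of those lists; with 50% of the smaller region required, CTCF was 52.1% and Caudal 42.9%, and with the widest 50% of HDAC lists EcR was 4.23%. Leaving out each HDAC list gave 55.3% to 59.6% for CTCF, 49.3% to 52.3% for Caudal and 2.10% to 2.90% for EcR. The difference between segments and the rest of the arms kept its direction and threshold in 28 of 29 settings, 6.90 to 7.79 points without single HDAC lists and 4.88 to 8.45 points without single other lists, but was 3.81 points without both CTCF lists (all 6 lists higher, exact p = 0.0312, the smallest 6 lists can give, adjusted 0.0625). The difference from bases of 4 to 6 lists, 0.267 points, turned in 15 of 30 settings and passed in none (exact permutation): -0.00834 with the pair of lists as 1, -0.429 with all 5 enzymes, -0.0799 with the widest 50%, -0.162 as a log2 ratio, -0.340 with the mean of the CTCF lists, -0.306 with bases more than 5000 bp from a segment and -1.15 without both CTCF lists. It ran between -0.637 and 0.749 points when single lists were left out, -0.308 to 0.336 for the HDAC lists alone. The settings on distance and on leaving out CTCF, Caudal or EcR lists were chosen after seeing the data. The cause of these shifts was not tested, except that fewer lists leave fewer runs of 7. Unknown read depth limits all of them: a segment shows where the authors' calls meet, not how strongly.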

Other observations

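Outside the 6 arms, 1 run of 7 HDAC lists was found, on XHet (2099 bp), and Uextra reached 6 lists at most.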
